A study of Mus musculus with 2 samples.

Results

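Globin switching was followed in the mouse optic cup at E17.5 through 9 genes of the red blood cell, out of 32285 genes in the count matrices. The genes were listed by symbol, each symbol matched 1 gene, and no measured value entered the choice. They are the embryonic globins Hbb-y, Hbb-bh1 and Hba-x, the adult globins Hbb-bs, Hbb-bt, Hba-a1 and Hba-a2, and the red cell genes Alas2 and Slc4a1. The samples were 2 single-cell RNA libraries made with 10x 3′ chemistry, 1 from Myrf humWT/humWT and 1 from Myrf humdG/humdG mice. Both alleles carry a human last coding exon in place of the mouse one, and humdG adds to it the frameshift of patients with nanophthalmos, which alters the C-terminal end. The libraries are called humWT and humdG from here on. The change is present in every cell of the animal, with no Cre involved, so the blood cells carry it too. The labels give 3 pooled eye cups per library with cornea, lens and optic nerve removed, but the same protocol text names other mice with a floxed Myrf allele and Rx>cre, while the methods of the study list the cornea among the tissue kept and count 3 mice per genotype. No cell can be assigned to 1 of the pooled animals from the labels. With 1 library per genotype there is no replicate error, no test between genotypes and no p-value, and every interval below covers counting error only, at a level of 95%.

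Red blood cells fill with hemoglobin, a tetramer of alpha-type and beta-type globin chains that each hold a heme. In the mouse, primitive red cells from the yolk sac carry embryonic chains, zeta (Hba-x) with epsilon-y (Hbb-y) and beta-h1 (Hbb-bh1), and definitive red cells from the fetal liver carry the adult chains. Alas2 makes the red cell form of the first enzyme of heme synthesis, and Slc4a1 encodes band 3, the anion exchanger of the red cell membrane. Globin messages are so abundant that blood broken during dissociation leaves free globin RNA in the cell suspension, and droplets that hold another cell take it up.

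The globin genes lie in developmental order in 2 clusters (GRCm38, GENCODE M21). On the minus strand of chromosome 7 a stretch of 40693 bases holds Hbb-y (103851749 to 103853216), Hbb-bh1 (103841637 to 103843164), Hbb-bs (103826534 to 103828096) and Hbb-bt (103812524 to 103813996). On the plus strand of chromosome 11 a stretch of 20899 bases holds Hba-x (32276400 to 32278116), Hba-a1 (32283511 to 32284465) and Hba-a2 (32296489 to 32297298). Slc4a1 lies on the minus strand of chromosome 11 (102348824 to 102366203), apart from the globins, and Alas2 on the plus strand of chromosome X (150547375 to 150570638).

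The 130 bases just before the transcription start are shown for both embryonic genes with a promoter in the RefSeq table and for 3 adult genes, because the embryonic and adult genes of these clusters differed most in level. Sequences and starts are from RefSeq, GRCm38.p6, and read 5′ to 3′ along the gene. The RefSeq starts differ from the GENCODE spans above. The Hba-x, Hba-a1 and Hbb-bs windows lie inside those spans, and the Hbb-y and Hbb-bt windows overlap them in part. Capitals mark CCAAT and CACCC on either strand, and ATAAA or ATATA on the gene's own strand between 40 and 20 bases before the start.
Hbb-y, chr7:103853208-103853337, minus strand: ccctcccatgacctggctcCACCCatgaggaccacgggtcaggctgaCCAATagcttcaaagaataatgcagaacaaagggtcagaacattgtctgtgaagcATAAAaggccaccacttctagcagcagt
Hba-x, chr11:32276470-32276599, plus strand: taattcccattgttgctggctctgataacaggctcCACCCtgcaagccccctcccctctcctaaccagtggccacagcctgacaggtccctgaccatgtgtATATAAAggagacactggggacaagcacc
Hbb-bs, chr7:103827929-103828058, minus strand: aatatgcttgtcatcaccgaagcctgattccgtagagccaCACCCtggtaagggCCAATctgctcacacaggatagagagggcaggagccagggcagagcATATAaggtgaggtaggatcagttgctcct
Hbb-bt, chr7:103813924-103814053, minus strand: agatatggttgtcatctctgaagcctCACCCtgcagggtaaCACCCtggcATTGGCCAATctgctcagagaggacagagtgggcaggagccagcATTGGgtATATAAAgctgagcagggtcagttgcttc
Hba-a1, chr11:32283542-32283671, plus strand: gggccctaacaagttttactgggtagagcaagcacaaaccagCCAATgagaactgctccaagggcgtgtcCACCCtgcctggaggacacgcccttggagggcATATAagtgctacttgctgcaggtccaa

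CACCC was in all 5 windows, and among 27025 promoters it was found in 33.2% of windows of this length, on either strand. CCAAT was in 23.2% of all windows. It stood 83 bases before the start in Hbb-y, 76 in Hbb-bs, 75 in Hbb-bt and 88 in Hba-a1, and no CCAAT was in the Hba-x window. Hbb-bt also held it on the other strand, 80 and 36 bases before the start. An A/T motif lay between 27 and 30 bases before the start in each of the 5 genes: ATAAA in Hbb-y, ATATA in Hbb-bs and Hba-a1, and both in overlap in Hba-x and Hbb-bt. ATAAA was in 22.3% and ATATA in 9.72% of all windows on either strand. The Hba-a2 window was identical to that of Hba-a1 over the 127 bases that align, and the Hbb-bs and Hbb-bt windows were identical at 99 of 128 aligned bases. These matches describe the letters of the window and say nothing on which factors bind.

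The adult pairs are also close in the transcript, which bears on how reads are counted. The Hba-a1 and Hba-a2 transcripts, of 699 and 554 bases, differed at 1 of 538 aligned bases, with an identical run of 415 bases. Those of Hbb-bs and Hbb-bt, of 628 and 703 bases, differed at 46 of 626, with a run of 430. Bases with no partner in the alignment are not among these differences. A read in an identical stretch cannot be assigned to 1 gene, so the split within each adult pair is uncertain. If such reads were left out of the count, the sum of a pair is affected too. The embryonic genes are well apart from the adult ones: Hbb-y was identical to Hbb-bs at 71.3%, Hbb-bh1 to Hbb-bs at 71.9% and Hba-x to Hba-a1 at 66.9% of aligned bases.

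The libraries held 17421 and 19565 barcodes with 129135207 and 114319529 unique molecular identifiers (UMIs, each counting 1 captured RNA molecule) in humWT and humdG. After filtering, 16166 and 18173 cells were kept, and 102 barcode sequences occurred in both libraries. The 7 globins made up 1.31% of all UMIs in humWT and 1.16% in humdG.

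Globin UMIs per barcode fell into a low and a high range in both libraries. In humWT 92.5% of barcodes and in humdG 95.6% held fewer than 50 globin UMIs, and 621 and 458 barcodes held at least 300. The ranges were not sharply apart, since 56 and 55 barcodes held 200 to 299 globin UMIs and 44 and 37 held 300 to 399. In 175 and 159 barcodes globins were more than 50% of all UMIs.

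**Figure D1:**
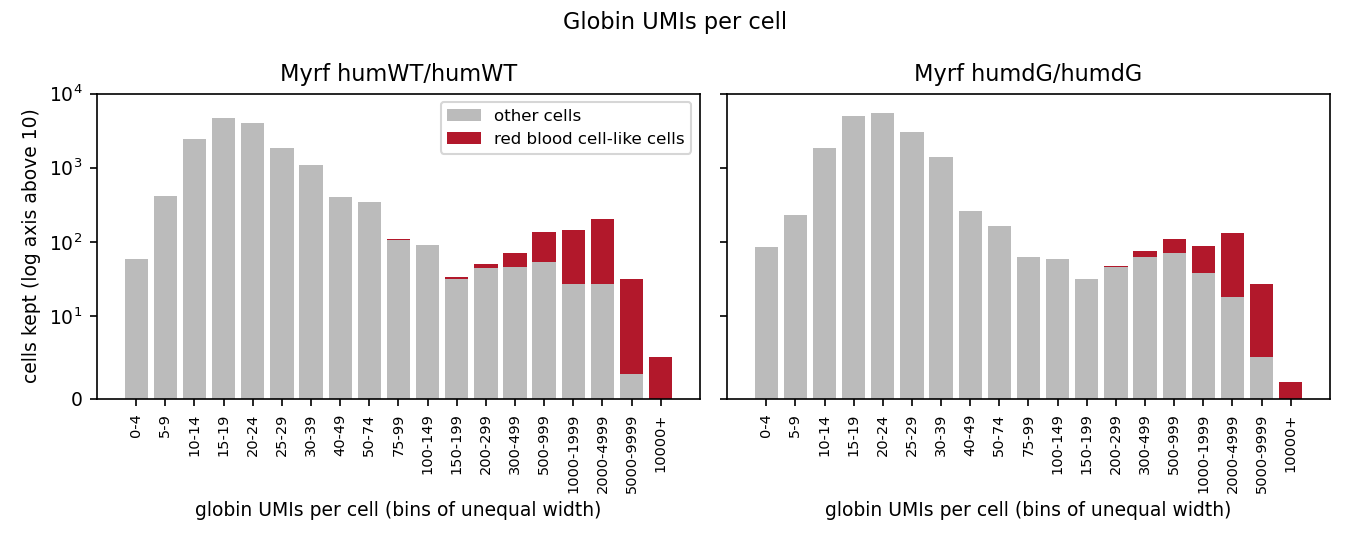
Number of cells kept (vertical axis, logarithmic above 10) by globin UMIs per cell (horizontal axis, bins of unequal width) in each library. Grey bars are cells outside the red blood cell-like class and red bars are cells in it; most cells lie between 10 and 30 globin UMIs and a second, smaller range lies above 300.

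Clustering formed 1 cluster led by Hbb-bt, Hbb-bs, Hba-a1, Hba-a2 and Alas2, with 500 cells in humWT and 250 in humdG. It is called red blood cell-like, because 3 of the 13 listed red cell markers found in the files were raised at least 2-fold over all other cells, with 10 CPM added to both levels, and none of the 3 is among the 9 genes. Tspo2, 1 of the 3, stood at 44.2 and 83.9 UMIs per 1000000 UMIs of the class (CPM) against 0.586 and 0.741 CPM in the other cells. Of the listed markers, Klf1 had 1 and 2 UMIs in humWT and humdG, Gata1 had 1 and 0, and Cldn13 had none. Rhag (4 and 0), Ermap (2 and 0), Epb42 (3 and 2), Hemgn (6 and 4) and Trim10 (7 and 2) were also low. These counts therefore do not set a red cell stage. All 9 genes could enter the clustering, so their height in this cluster is a description and not a finding.

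The cluster and the high globin range overlapped in part. In humWT 435 of the 500 cells held at least 300 globin UMIs, and in humdG 240 of 250. The 65 and 10 cells below that limit had a median of 20 and 19.5 globin UMIs, the level of cells of other types, and 2 and 0 Alas2 UMIs in all. Another 157 and 195 kept cells at or above the limit were in other clusters. Red blood cell-like cells were 3.09% (2.83 to 3.37) of kept cells in humWT and 1.38% (1.21 to 1.56) in humdG, while barcodes with at least 300 globin UMIs were 3.56% and 2.34% of all barcodes. How much blood was left in the dissected tissue and how much the animals held cannot be told apart.

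Adult globins made up nearly all globin UMIs of the red blood cell-like cells in both genotypes, and embryonic globins were at or near 0. Of 1054994 globin UMIs in these cells of humWT, 2 were embryonic, and of 636246 in humdG, 14 were. No red blood cell-like cell with at least 20 beta-type UMIs had an embryonic beta share above 0.513%.

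Hbb-y, the embryonic epsilon-y globin, had 0 UMIs among 698568 beta-type UMIs of humWT red blood cell-like cells. The exact upper limit of that share was 0.000528%, and 3 counts would be 0.000429%. In humdG it had 12 of 416045, or 0.00288% (0.00149 to 0.00504). The exact lower limit of the ratio of humdG to humWT was 5.56, which treats UMIs as independent, while UMIs of 1 cell are not. Set against 3 UMIs in humWT, 1.34 CPM, the level in humdG was 8.0-fold higher, a value that leaves out the counting error of the 12 UMIs. Of these, 1 cell held 7, and without that cell the level was 3.33-fold higher than 3 UMIs. The 12 UMIs were in 6 of 250 cells. Over all barcodes with at least 300 globin UMIs, 2 of 863711 beta-type UMIs were embryonic in humWT and 17 of 576189 in humdG.

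Hbb-bh1, the other embryonic beta-type globin, had no UMI in the red blood cell-like cells of either library. Its count over all barcodes was 0 in humWT and 1 in humdG. In the red blood cell-like cells the exact upper limit for this count of 0 was 1.65 CPM in humWT and 3.29 CPM in humdG.

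Hba-x, the embryonic zeta globin, had 2 UMIs in the red blood cell-like cells of each library. That was 0.000561% (6.8e-05 to 0.00203) of alpha-type UMIs in humWT and 0.000908% (0.00011 to 0.00328) in humdG. The ratio of the 2 libraries was 2.00 with an interval from 0.145 to 27.6, so no difference was detectable at this depth. With the class taken from libraries merged without integration the log2 ratio was 5.14 (2.49 to 10.5) from 21 UMIs in both libraries together, an interval above 0. Of these UMIs 20 were in humdG. A single humdG cell outside the class used here held 18 Hba-x UMIs, and whether it entered that other class was not tested. The interval treats UMIs as independent, which UMIs of 1 cell are not.

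Among the adult globins the order was the same in both libraries, Hbb-bs first, then Hba-a1, then Hbb-bt and Hba-a2. These are counts of 3′ ends, 1 per molecule, so they were not divided by gene length.

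Hbb-bs, an adult beta chain gene, held 251393 CPM in the red blood cell-like cells of humWT and 292913 CPM in humdG. It was 53.4% and 51.6% of all globin UMIs. Hbb-bt, its neighbor in the cluster, held 60487 and 78617 CPM, 12.8% and 13.8% of globin UMIs. The Hbb-bt share of adult beta UMIs was 19.4% (19.3 to 19.5) and 21.2% (21.0 to 21.3).

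Hba-a1, an adult alpha chain gene, held 103180 and 134305 CPM, 21.9% and 23.6% of globin UMIs. Hba-a2, its near-identical copy, held 55947 and 62340 CPM, 11.9% and 10.97%. Alpha-type UMIs per beta-type UMI were 0.510 in humWT and 0.529 in humdG, so fewer alpha than beta molecules were counted in either library. Reads of identical stretches, if left out of the count, would bear on both sums.

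Alas2 stood at 614 CPM in the red blood cell-like cells of humWT and at 662 CPM in humdG, from 1375 and 741 UMIs. The ratio of the second to the first was 1.08 (0.985 to 1.18), an interval that includes 1. The call changed in both directions with the setting. The log2 ratio, 0.11 here, was 0.40 (0.27 to 0.53) with globins out of the total and -0.19 (-0.31 to -0.079) over all barcodes with at least 300 globin UMIs. In the 31 and 15 cells with at least 3 red cell markers, 24 and 12 of them in the class, it was -1.56 (-1.96 to -1.17). At least 1 Alas2 UMI was found in 71.0% (66.8 to 74.9) and 76.4% (70.6 to 81.5) of the red blood cell-like cells, against 7.58% and 5.25% of other cells. Thinned to 1000 UMIs per cell, the shares were 34.7% and 44.0% against 1.90% and 1.81%, with 7 red blood cell-like cells left out per library as too shallow.

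Slc4a1 stood at 45.5 and 58.9 CPM, from 102 and 66 UMIs, with a ratio of 1.29 (0.935 to 1.78). On the log2 scale it was 0.37, against 0.67 (0.196 to 1.13) with globins out of the total and -1.20 (-1.79 to -0.63) in the cells with at least 3 red cell markers. Its UMIs were in few cells: 46 cells in humWT and 29 in humdG. The 10 cells with the most of it held 51 of the 102 and 47 of the 66 UMIs, and the highest single cell held 10 and 12. Alas2, in contrast, was at a median of 2 UMIs in both libraries.

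**Figure D2:**
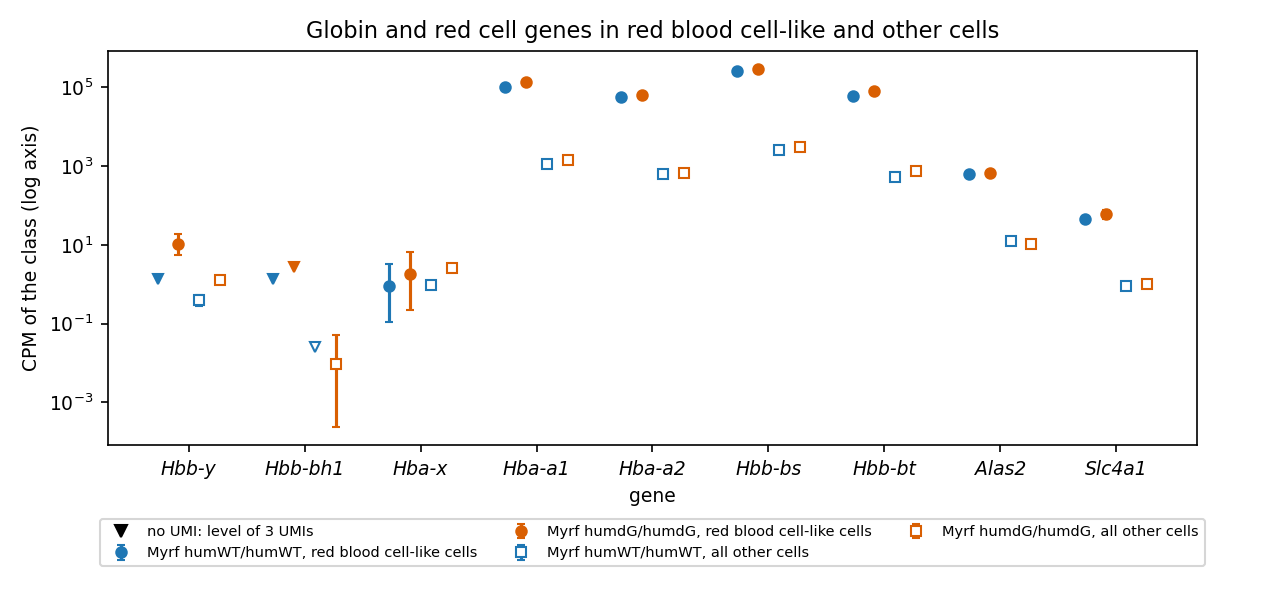
CPM (logarithmic axis) of each of the 9 genes in the red blood cell-like cells (filled) and in all other cells kept (open), by library, with exact Poisson intervals; triangles stand at the level of 3 UMIs where no UMI was found. The 4 adult globins lie between 55947 and 292913 CPM in the red blood cell-like cells, while the embryonic globins lie at 10.7 CPM or below in either set of cells.

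Between the genotypes the summed globins of the red blood cell-like cells were 471008 CPM in humWT and 568187 CPM in humdG, a ratio of 1.21 (1.20 to 1.21). The ratios of the single adult genes were 1.17 for Hbb-bs, 1.30 for Hbb-bt, 1.30 for Hba-a1 and 1.11 for Hba-a2. The mean was 2110 globin UMIs per cell in humWT and 2545 in humdG. These ratios moved with the choice of cells. They were 0.055 on the log2 scale for the summed globins over all barcodes with at least 300 globin UMIs, against 0.27 here, and Hba-a2 was then lower in humdG, at a log2 ratio of -0.086. In the 31 and 15 kept cells with a UMI of at least 3 red cell markers the direction turned, with a log2 ratio of -1.66 for the summed globins. Of these few cells 24 and 12 were in the red blood cell-like class, and 30 and 12 held at least 300 globin UMIs. What turned the direction by this gate was not tested.

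Across the 7474 genes with at least 20 UMIs in the red blood cell-like cells, 5.45% were at least 2-fold higher and 13.9% at least 2-fold lower in humdG with 0.5 UMIs added to each count, and of the 6 listed genes that reached 20 UMIs (the 4 adult globins, Alas2 and Slc4a1) none was past 2-fold in either direction. The median log2 ratio of these genes was -0.08. Because globins took 47.1% of the UMIs in humWT and 56.8% in humdG, leaving them out of the total moved every log2 ratio up by 0.29, to a median of 0.21. The number of genes 2-fold higher was 785 and of genes 2-fold lower 657 on that scale, against 407 and 1037 with globins in the total. Markers of other cell types were also counted in these barcodes, and of their 17 lists 12 were lower and 5 higher by CPM in humdG with globins in the total. With globins out of the total 9 were lower and 8 higher, since blood vessel, surface epithelium and optic nerve head changed direction. The 8 mesenchyme markers, all of them in the files, summed to 2789 and 921 CPM in the red blood cell-like cells and to 13986 and 6443 CPM in the other cells. The 5 lists of the neural retina were higher on both scales, among them retinal progenitor at 389.8 and 759 CPM, neurogenic at 104 and 227 CPM and photoreceptor precursor at 133 and 247 CPM. In the other cells retinal progenitor was at 1312 and 2417 CPM, neurogenic at 348 and 801 CPM and photoreceptor precursor at 392 and 672 CPM. The part of the markers of other cell types in the ratios was not tested.

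Other red cell genes were set beside these by their level in the cluster, which is again a description, since any gene could enter the clustering. Of all genes, 0.388% of the 7474 were at least 2-fold higher in red blood cell-like than in other cells of both libraries, with 10 CPM added to both levels. In the heme and iron list 3 of 8 genes passed: Alas2, Fech (ferrochelatase, which puts iron into heme) and Slc25a37 (mitoferrin 1, the iron importer of mitochondria). Fech had 161 and 176 CPM against 23.3 and 19.3 CPM in the other cells, and Slc25a37 had 200.01 and 225 CPM against 15.4 and 12.4 CPM.

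In the membrane list 3 of 7 genes passed, Slc4a1 and 2 that were among the markers that named the cluster. In the list of late maturation and cytosol genes 7 of 10 passed. They included Bpgm (which makes the 2,3-bisphosphoglycerate that loosens oxygen from hemoglobin), Mkrn1, Tent5c, Ube2l6, Isg20 and Tspo2, the last of which was also among the 3 markers that named the cluster. Bpgm had 255 and 280.4 CPM against 23.5 and 29.5 CPM, and Mkrn1 had 622 and 681 CPM against 38.0 and 51.8 CPM. Among the globin regulators 0 of 4 passed. Bcl11a, the repressor of embryonic globin genes, had 14 and 12 UMIs, Sox6, its partner, had 61 and 15, Myb had 54 and 53 and Ldb1 had 34 and 19, each of them lower than in the other cells by CPM with globins in the total.

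Between the genotypes the median log2 ratio was 0.15 over the 8 heme and iron genes, 0.26 over the 7 membrane genes, 0.48 over the 4 globin regulators and 0.13 over the 10 late genes, against -0.08 over all genes. With at least 20 UMIs, and with 0.5 UMIs added to each count for log2 ratios, 1 of the 8 heme and iron genes was past 2-fold and 0 genes of the other 3 lists were. Myb was at 1.96 (1.32 to 2.92) and Tspo2 at 1.90 (1.42 to 2.54), and Sox6 at 0.492 (0.260 to 0.876). Sox6 lay at the limit: it was past 2-fold by this ratio of the counts and not with 0.5 UMIs added, at a log2 ratio of -0.99. Prdx2, a peroxiredoxin in the late list, was at 375 and 603 CPM, a ratio of 1.61 (1.45 to 1.78). The other cells differed in the same direction. Prdx2 was at 465 and 660 CPM there, above its level in the class, and Myb at 62.9 and 126 CPM. Tspo2 was at 0.586 and 0.741 CPM there, and Sox6 at 53.0 and 36.6 CPM. Whether these ratios are particular to red cells was not tested.

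Over the 24 clusters within each library, the genes whose log2(CPM + 10) followed the summed globins most closely included Tent5c, Mkrn1, Kel and Tspo2. Their mean Pearson correlations over the libraries were 0.885 for Tent5c, 0.862 for Mkrn1, 0.851 for Kel and 0.832 for Tspo2. These are descriptions over 24 points that share 1 library each. The red blood cell-like cluster alone held 62.3% of the globin UMIs of all barcodes in humWT and 47.9% in humdG.

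Single red cells differed widely in globin content. Among the cells of the class with at least 300 globin UMIs, the median was 1955 in humWT (quartiles 1045 and 3348, highest 19032) and 2369.5 in humdG (quartiles 1081.5 and 3558, highest 15612). Globins were a median of 44.9% and 53.0% of the UMIs of such a cell.

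The cells with more globin UMIs also held more Alas2 and Slc4a1. With the cells split into 4 even groups by globin UMIs, from lowest to highest, the mean of Alas2 UMIs per cell was 1.13, 2.19, 3.14 and 6.19 in humWT and 1.00, 1.72, 3.85 and 5.78 in humdG. Per 1000 globin UMIs, Alas2 was 1.74, 1.49, 1.23 and 1.23 in humWT and 1.36, 1.01, 1.32 and 1.10 in humdG. Slc4a1 had 11, 11, 27 and 53 UMIs in these groups of humWT and 10, 4, 19 and 33 in humdG. Non-globin UMIs per cell also differed, with medians from 2308 to 2585.5 and from 1680.5 to 2178 over the 4 groups, and the capture of a droplet and the RNA content of a cell cannot be told apart.

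The Hbb-bt share of adult beta UMIs varied from cell to cell far more than the share of either library. In cells with at least 100 adult beta UMIs it ran from 0.667% to 33.7% in humWT, with quartiles of 10.1% and 23.1%. In humdG it ran from 1.66% to 36.4%, with quartiles of 13.4% and 26.2%. In humWT its median was 11.7%, 14.2%, 19.0% and 23.0% from the lowest to the highest of the 4 groups by globin UMIs. In humdG the medians were 20.9%, 18.9%, 20.3% and 23.5%, without the steady rise of the other library, and the difference was not tested.

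The Hba-a2 share of adult alpha UMIs, in contrast, fell into separate groups of cells, and the groups differed between the libraries. The groups were set after the values were seen, at 10% and 30%, in all barcodes with at least 300 globin UMIs and 100 adult alpha UMIs. Of 611 such barcodes in humWT, 476 (77.9%) lay at 30% or more with a median of 40.3%, 135 (22.1%) lay from 10% to 30% with a median of 20%, and 0 lay below 10%. Of 455 in humdG, 335 (73.6%) lay at 30% or more with a median of 41.2%, 6 from 10% to 30%, and 114 (25.1%) below 10% with a median of 1.45%. The upper group was thus alike in both libraries, the middle group was nearly all in humWT, and the lowest group was all in humdG.

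The red blood cell-like class alone gave 342, 91 and 0 cells in these groups in humWT and 184, 3 and 53 in humdG. Between 25% and 35% lay 25 and 6 cells of the class, and between 5% and 15% lay 3 and 4.

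**Figure D3:**
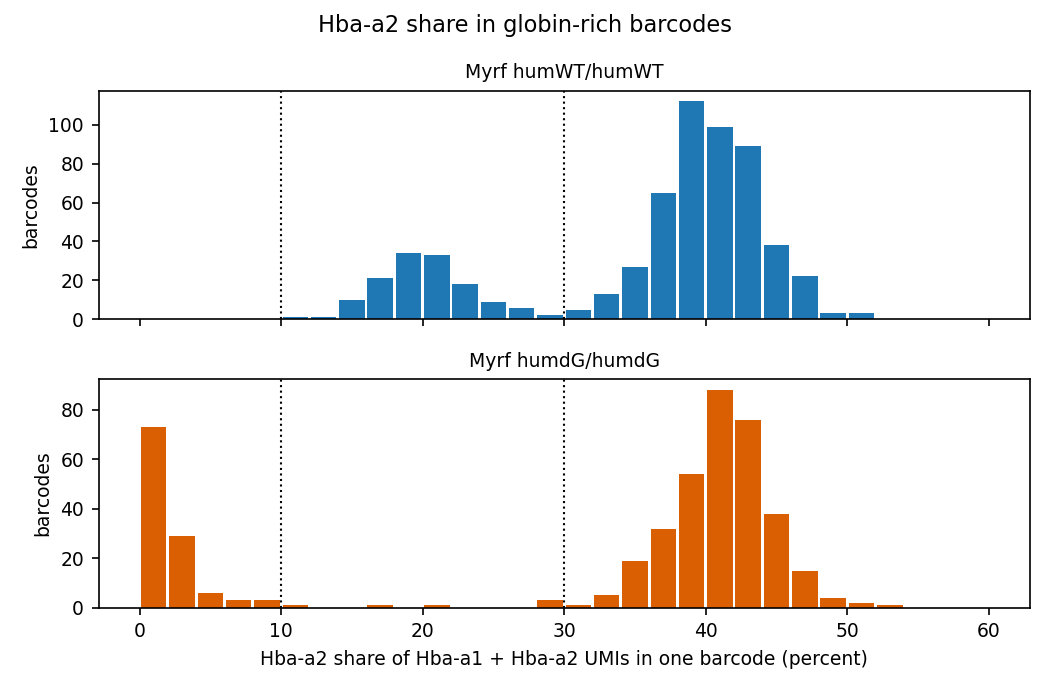
Number of barcodes (vertical axis) by Hba-a2 share of Hba-a1 plus Hba-a2 UMIs (horizontal axis, percent, bins of 2) in all deposited barcodes with at least 300 globin and 100 adult alpha UMIs, by library; dotted lines stand at 10% and 30%. Both libraries have a peak near 41%, humWT has a second one near 20%, and humdG has a second one near 1.45%.

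Alpha-type UMIs per beta-type UMI were higher, not lower, in the cells with less Hba-a2. In the red blood cell-like class of humdG they were 0.655 in the cells below 10% and 0.496 in those at 30% or more. In humWT they were 0.614 in the middle and 0.483 in the upper group. Hba-a1 per beta-type UMI was 0.644 in the lowest group and 0.290 in the upper group of humdG, and Hba-a2 was 0.0114 and 0.206. In humWT Hba-a1 was 0.491 in the middle and 0.288 in the upper group, and Hba-a2 was 0.123 and 0.195. The limit from reads of identical stretches holds for all of these values.

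The groups were otherwise close in globin content, with medians of 2395 and 2348 globin UMIs for the lowest and the upper group in humdG, and 2002 and 1919.5 for the middle and the upper group in humWT. The median Hbb-bt share was 16.4% and 22.6% in the first pair and 21.5% and 17.1% in the second. Each library pools 3 eye cups whose cells carry no mark of the animal, and the 2 genes differ at 1 aligned base of the transcript, so differences between the pooled animals and the assignment of reads to the copies cannot be told apart. The ratios of Hba-a1 and Hba-a2 between the genotypes given above are sums over these groups of cells.

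Outside the red blood cell-like class, adult globins were found in nearly every cell at a low and even level. At least 1 globin UMI was in 99.96% of the 15666 other cells of humWT and in 99.95% of the 17923 of humdG, with a median of 20 and 21 globin UMIs per cell. By CPM the summed globins stood at 4750 and 5821, which was 99.2-fold and 97.6-fold below the red blood cell-like cells.

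The number of globin UMIs hardly moved with depth. With all other cells split into 10 equal groups by total UMIs, from the shallowest to the deepest group, the median of total UMIs rose from 1647 to 23167.5 in humWT, and the median of globin UMIs went from 17 to 20 and was between 17 and 21 in every group. In humdG total UMIs rose from 1180 to 19015 and globin UMIs stayed between 19 and 22. As a part of all UMIs, globins therefore went from 1.09% to 0.0833% in the first library and from 1.68% to 0.110% in the second. A level set by CPM in other cells thus follows depth: the summed globins were 1.23-fold higher in humdG by CPM, and 0.04 lower on the log2 scale by UMIs per cell.

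The level hardly moved with cell type either. Across 12 named classes the median was between 18 and 22 globin UMIs per cell in humWT. In humdG it was between 19.5 and 21 in 11 classes and 26 in the 139 cartilage-like cells, where the upper quartile was 37. The blood vessel-like cells, the walls of the vessels that carry the blood, had a median of 20 and 21, and the retinal progenitor-like cells, which divide to form the neural retina, had 19 and 20.

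**Figure D4:**
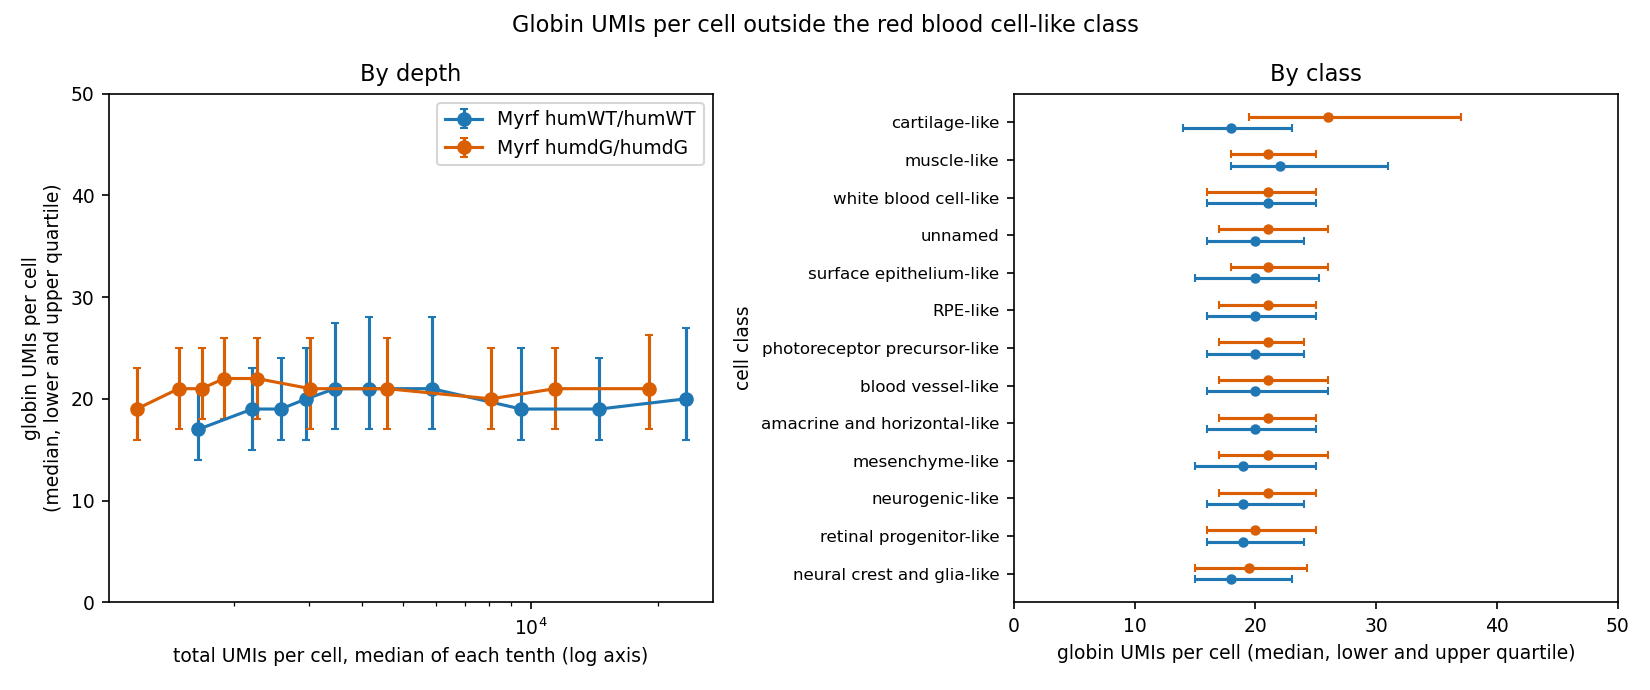
Globin UMIs per cell outside the red blood cell-like class, as medians with lower and upper quartiles, by 10 equal groups of total UMIs per cell (left, logarithmic horizontal axis) and by cell class (right), in each library. Medians lie between 17 and 26 at every depth and in every class.

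Cells of other classes with at least 300 globin UMIs were rare and occurred widely. They were 10 of 644 blood vessel-like cells (1.55%) in humWT and 2 of 378 (0.529%) in humdG, and 11 of 628 (1.75%) and 9 of 843 (1.07%) photoreceptor precursor-like cells. White blood cell-like cells gave 1 of 245 and 3 of 158. The clusters without a name held 87 and 145 of the 157 and 195 such cells, which was 1.38% of their 6282 cells and 1.44% of their 10078.

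By 3 shares of adult globins, the other cells were near the red blood cell-like cells of their own library. Among other cells with fewer than 300 globin UMIs, Hbb-bs was 51.0% of globin UMIs in humWT and 52.0% in humdG, against 53.4% and 51.6% in the red blood cell-like cells. Hbb-bt was 10.8% and 12.4%, against 12.8% and 13.8%, lower in both. The Hba-a2 share of adult alpha was 37.1% and 33.8%, against 35.2% and 31.7%. The lower share of humdG was thus found again in its cells of other types. For each of these 3 shares the counting intervals of the 2 sets of cells did not overlap in either library. In the same other cells, alpha-type UMIs per beta-type UMI were 0.617 in humWT and 0.553 in humdG, against 0.510 and 0.529. The embryonic share of alpha-type UMIs differed far more, at 0.0807% and 0.183% against 0.000561% and 0.000908%.

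Alas2 and Slc4a1 did not keep the proportion to globins that they had in the red blood cell-like cells. Per 1000 globin UMIs, the other cells below 300 globin UMIs held 3.26 (3.07 to 3.45) Alas2 UMIs in humWT and 2.16 (2.02 to 2.31) in humdG, against 1.30 (1.24 to 1.37) and 1.16 (1.08 to 1.25) in the red blood cell-like cells. Slc4a1 was at 0.222 and 0.232 against 0.0967 and 0.104. For both genes the counting intervals of the 2 sets of cells did not overlap in either library.

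Alas2 also rose with depth, which the globins did not, while Slc4a1 had few UMIs. The mean of Alas2 UMIs per other cell was 0.0549 in the shallowest and 0.137 in the deepest of these 10 groups of humWT, and 0.0273 and 0.103 in humdG. Slc4a1 had 5 UMIs in the shallowest and 17 in the deepest of these 10 groups of humWT, and 6 and 35 in humdG. In the remaining groups of humdG it had from 3 to 13, without a steady rise. Of the 109 Slc4a1 UMIs in the other cells of humdG, 19 were in 1 mesenchyme-like cell, which lay in the deepest group.

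Embryonic globin was found mainly outside the red blood cell-like cells, in a small number of cells. Over all barcodes humWT had 166 embryonic globin UMIs, 116 of Hba-x and 50 of Hbb-y, and humdG had 431, 276 of Hba-x and 154 of Hbb-y and 1 of Hbb-bh1. Per 1000000 globin UMIs that was 98.0 and 325. In the other cells Hba-x was 2.65-fold (2.12 to 3.34) and Hbb-y 3.19-fold (2.27 to 4.56) higher by CPM in humdG. On the log2 scale that was 1.41 and 1.67, against 1.07 (0.7475 to 1.405) and 1.34 (0.844 to 1.854) as UMIs per cell. The intervals treat UMIs as independent, while 1 cell held 56 of the 111 Hba-x UMIs of humWT other cells.

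A few cells carried much of this count. With a limit of 5 embryonic UMIs, set after the values were seen, 3 cells in humWT held 68 of the 166 UMIs (41.0%) and 10 cells in humdG held 196 of the 431 (45.5%). Of these 13 cells 1 was red blood cell-like. The rest of the UMIs were spread thinly, mostly as 1 UMI in a barcode, in 84 and 205 barcodes. Without the cells at the limit, embryonic UMIs per 1000000 globin UMIs were 57.8 in humWT and 177 in humdG, still higher in humdG.

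The highest cell of humWT was retinal progenitor-like by its cluster and held 56 Hba-x and 2 Hbb-y UMIs beside 31 adult globin UMIs, so Hba-x was 76.7% of its alpha-type UMIs. In humdG the 4 highest cells held 49, 37, 18 and 15 Hba-x UMIs and 5, 1, 16 and 6 Hbb-y UMIs, beside 40, 22, 37 and 19 adult ones. The only Hbb-bh1 UMI of the series was in the last of these, another retinal progenitor-like cell. These adult counts compare with quartiles of 17 and 25 globin UMIs in the other cells of that library, and their Alas2 and Slc4a1 counts were 0 in all 4.

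Of Alas2, Slc4a1 and the 13 red cell markers, only 1 Alas2 UMI was found in these 5 cells, in the cell of humWT. The remaining genes of the red cell lists were not looked up in them. The cell of humWT had 6477 UMIs and 2976 genes, and the 4 of humdG had 951 to 8959 UMIs and 516 to 3498 genes, with no UMI of the 13 red cell markers in any of the 5. The red blood cell-like cell among the 13 was different in its globins: 7 Hbb-y and 0 Hba-x UMIs beside 2506 adult globin UMIs. It too had no UMI of the red cell markers, with 0 Slc4a1 UMIs and 1 Alas2 UMI.

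**Figure D5:**
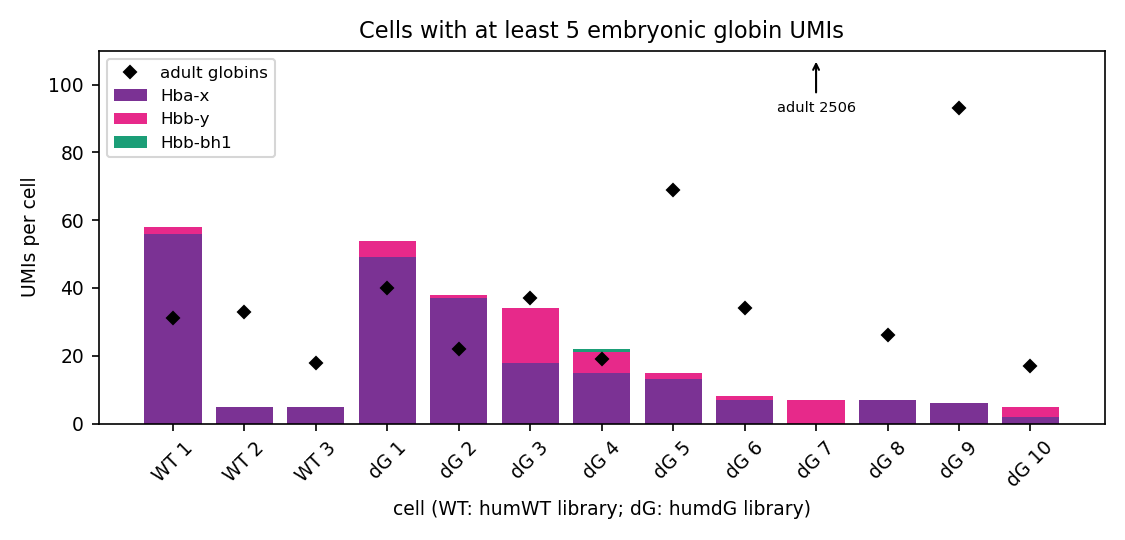
UMIs of Hba-x, Hbb-y and Hbb-bh1 (stacked bars) and of the adult globins (diamonds, or an arrow where above the axis) in each of the 13 cells with at least 5 embryonic globin UMIs. Hba-x leads in 11 of the cells, and 1 cell has 2506 adult globin UMIs.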

How the data were processed

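The authors deposited 1 matrix of UMI counts per library, made with Cell Ranger 7.1.0 on mm10 per the labels, which also name Seurat 4.1.1. The annotation and the handling of intronic reads are not given in the sources used here. The deposited counts are whole numbers with no normalization. Barcodes with over 500 genes and under 15% mitochondrial UMIs were kept in both libraries. The study's code shows the 500-gene step for the humdG library, and its methods state over 200 genes, which was tried as an alternative. Scrublet (scanpy 1.11.5) called 1 and 0 doublets by itself, so the 5% of barcodes with the highest score in each library were removed. More barcodes were kept than the cells the study's text counts.

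Cells were integrated by canonical correlation and clustered in Seurat 5.3.0 (2000 variable genes, 20 dimensions, resolution 0.5). The plan left the 9 genes out of clustering, but then no cluster had 3 red cell markers raised and no red cell class could be formed. The class therefore comes from the clustering that kept them, planned as the alternative. The genes, gene lists and named genes were chosen with earlier results of these data known. Beside the 9 genes, the text names listed genes with at least 20 UMIs in the class and the 5 genes most like the summed globins. Some genes that this rule names are not reported here. No cell was above the planned limit for embryonic share, so no genes were compared across it.

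UMIs were summed per class and given as CPM (UMIs per 1000000 UMIs). Shares have exact Clopper-Pearson intervals, levels exact Poisson intervals and ratios exact conditional binomial intervals at 95%, which cover counting error only. The interval calculation was tested on simulated data with independent counts, so that test does not cover UMIs that gather in single cells. A count of 0 was set against 3 counts. Analyses ran in Python 3.11.15 and R 4.3.3, and sequences were aligned with Biopython 1.88. The alternatives were other filters, clusterings, definitions of red cells, and scales. All columns were mapped to a sample.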

Additional observations from a re-analysis of the deposited data

Results flagged for a closer look

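Barcodes left out of the cells kept also held red cell levels of globin. In humWT 29 such barcodes had at least 300 globin UMIs, with 51350 globin UMIs in all, and in humdG 23 had, with 35995. Of the 29, 26 were removed as high doublet scores and 3 held 500 genes or fewer, and of the 23, 13 were removed as high doublet scores, 9 held 500 genes or fewer and 1 had too many mitochondrial UMIs. They stand out as signal outside the cells compared. All of them enter the counts over all deposited barcodes.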

How the results depend on the processing

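No paired analysis was possible because each genotype had 1 library. With the 9 genes left out of clustering, at most 1 red cell marker was raised in a cluster and 816 of 1027 globin-rich cells lay in the largest one, so that setting gave no values. The settings with at least 300 globin UMIs, the groups by Hba-a2 share and the groups by globin UMIs were chosen after seeing the data. Of the recomputed values, 102 stayed as given, 90 moved and 23 turned direction, and the cause was not tested.

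Red blood cell-like cells were 2.72% of humWT without doublet removal and 1.63% of humdG without integration. They were 0.192% and 0.0825% of cells kept, or 0.178% and 0.0767% of all barcodes, by a gate of 3 markers (31 and 15 cells). With at least 300 globin UMIs they were 3.56% and 2.34% of all barcodes and, within the class in humWT, 2.69%.

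The embryonic alpha share was 0 in humWT without doublet removal, by either gate, and as a median over cells, and in humdG 0.00872% without integration, 0.0051% by either gate and 0 as a median over cells. The embryonic beta share of humdG was 0.0069% without integration and 0 as a median.

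The log2 ratio of the summed globins in red blood cell-like cells was 0.29 with over 200 genes, 0.24 without doublet removal, 0.28 at resolution 1, 0.16 without integration, 0.055 over barcodes with at least 300 globin UMIs, 0.22 in the class above that limit, 0.56 with globins out of the total, and -1.66 by either gate. By either gate Hba-a1 was at -1.71, Hba-a2 at -1.52, Hbb-bs at -1.65 and Hbb-bt at -1.74. Over barcodes with at least 300 globin UMIs, Hba-a2 was at -0.086 and Hbb-bs at -0.0044.

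In the other cells the log2 ratio of the summed globins was 0.31 with over 200 genes, 0.26 without doublet removal, 0.31 at resolution 1, 0.21 without integration, 0.34 with barcodes of at least 300 globin UMIs left out, 0.34 without the top 1% of cells, -0.15 and -0.12 by the gates over cells kept and over all barcodes, and -0.043 as UMIs per cell. By the same gates Hba-a1 was at -0.043 and -0.0089, Hba-a2 at -0.31 and -0.29, and Hbb-bs at -0.19 and -0.17. Only 24 of the 500 red blood cell-like cells of humWT and 12 of the 250 of humdG pass the gates. The rest of the class then counts among the other cells, so the values by the gates are not values of cells outside the class. As UMIs per cell Hba-a2 was at -0.26 and Hbb-bs at -0.055.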

Other observations

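Of the other globin genes in these clusters, Hbb-bh2 had no UMI in any barcode of either library. The theta-type genes Hbq1a and Hbq1b had 24 and 22 UMIs over all barcodes of humWT and 16 and 20 in humdG.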
